A study of Caenorhabditis elegans with 8 samples.

Results

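VP303 is a Caenorhabditis elegans strain in which, per the labels, RNA interference (RNAi) acts in the intestine, and N2 is the wild type, in which the labels place it in the whole body. The comparison rests on the 4 arrays titled VP303 or N2 out of 8 in the series, chosen by strain name and matched by RNAi treatment. Each strain received RNAi against ash-2 or a control, lasting 3 days from the egg to the young adult, after maintenance at 20 °C on Escherichia coli OP50, and each combination of strain and treatment was measured on 1 array. The other 4 arrays hold NR350, labelled muscle, and TU3401, labelled neuron, each under the same treatments, and they served to show which strain of the pair stands apart. Total RNA was extracted from worms with TRIzol, so the tissue on a label is where RNAi acts, not the tissue that was sampled. The labels do not say how many cultures or worms an array holds, and with 1 array per combination the p-values measure the spread between these arrays after strain and treatment are fitted, which may be technical.

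In C. elegans, double-stranded RNA taken up by feeding is cut into small RNAs that are loaded onto the Argonaute protein RDE-1, and an animal without a working rde-1 gene does not respond. Strains such as VP303 are rde-1 mutants in which a transgene restores rde-1 from a tissue promoter. In VP303 this is the promoter of nhx-2, a sodium/proton exchanger gene of the intestine, and the transgene was introduced together with a dominant allele of the cuticle collagen gene rol-6, whose carriers roll as they move. The cuticle itself is a collagen coat made by the epidermis and renewed at each moult, and large families of collagen genes are switched on and off in step with the moults. No nucleotide or protein sequence is shown, because none was used here.

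Values are log2 of the deposited intensity, and a feature is 1 probe set of the array. Of 27792 features, 25546 have exactly 1 gene symbol. A gene was called when limma gave an adjusted p under 0.05 over all 27792 features, in a fit of strain and RNAi treatment to all 8 arrays with 3 residual degrees of freedom. Most features were dim: 31.1% had a mean log2 above 5, an intensity of 32, and array medians lay between 21.1 and 21.6. A difference against a level near 4.4 is therefore bounded by the low end of the scale.

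The RNAi target was read first. The log2 level of ash-2, which encodes a subunit of histone H3 lysine 4 methyltransferase complexes, was 7.23 in N2 under control RNAi and 7.52 on the N2 array labelled ash-2. It was 7.21 and 7.87 in VP303. The level was thus higher on both arrays labelled ash-2, against what the label says, and these are called here the arrays labelled ash-2; no direction below rests on that label. Between the strains ash-2 differed by 0.17 (SE 0.17, limma adjusted p = 0.875).

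The markers of several tissues were present on the VP303 arrays, as whole-animal RNA would give. The 8 intestine markers, among them ges-1, elt-2 and vha-6, had a lowest log2 level of 5.05 and 5.13 on the 2 VP303 arrays, and their summed intensity was 2480 and 2695 against 2179 and 2332 in N2. The summed intensity of 5 body wall muscle markers was 793 and 868 in VP303 against 606 and 1167 in N2, that of 5 neuron markers 2878 and 2897 against 2431 and 2842, and that of 4 germ line markers 7649 and 7741 against 7752 and 9175. The 4 epidermis markers summed to 3185 and 3703 in VP303 and to 2356 and 2781 in N2. The sums of the intestine, epidermis and neuron markers were higher on both VP303 arrays than on both N2 arrays. Those of the germ line markers were lower, narrowly so, and those of muscle overlapped. With 2 arrays per strain such separation is common: among single features with 1 symbol, VP303 lay above both N2 arrays in 19.6% and below in 19.5%. None of these marker genes was called except col-19, an adult cuticle collagen gene (0.64, limma adjusted p = 0.0403). A sum follows its brightest members. The epidermis sum was mostly col-19, at an intensity of 2059 and 2620 in VP303 and 1314 and 1685 in N2. The neuron sum was mostly snb-1, at 2317 and 2255 in VP303 and 1807 and 2163 in N2. Of the 5 neuron markers 1 differed upward and 4 downward, with a median of -0.05. In RNA from whole animals, fewer cells of a type and less RNA per cell cannot be told apart, and the part of tissue proportions in the results below was not tested.

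The 2 genes that mark the strain, rol-6 and rde-1, were far higher in VP303. The log2 level of rol-6 was 4.57 in N2 under control RNAi and 4.70 on the N2 array labelled ash-2, at the low end of the scale, and 12.25 and 12.08 on the matching VP303 arrays. The difference was 7.52 (SE 0.15, limma adjusted p = 8.24e-10). The level of rde-1 was 5.87 ± 0.09 in N2 and 8.33 ± 0.11 in VP303 (mean ± SD of the 2 arrays of a strain, n = 2), a 5.48-fold difference (2.45 on the log2 scale, SE 0.13, limma adjusted p = 8.71e-06). Both genes were far below VP303 in the other strains: rol-6 lay between 4.65 and 5.66 and rde-1 between 5.46 and 5.69 on the NR350 and TU3401 arrays. The array cannot tell the chromosomal copy of either gene from a transgene copy.

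Genes beside rol-6 and nhx-2 were also higher in VP303, and T01B7.11 and B0495.11 differed by more than rde-1. T01B7.11, a noncoding RNA gene next to rol-6 in the RefSeq gene order of assembly WBcel235, was at 4.32 ± 0.01 (SD, n = 2) in N2 and at 7.68 ± 0.46 in VP303, whose arrays were both above 7, a difference of 3.36 (SE 0.16, limma adjusted p = 2.35e-06). B0495.11, a noncoding RNA gene next to nhx-2, was at 4.26 and 4.27 in N2 and at 8.88 and 8.60 in VP303, a difference of 4.48 (SE 0.12, limma adjusted p = 7.7e-09). B0495.5, a protein-coding gene on the same side of nhx-2, was at 4.94 and 5.02 in N2 and at 6.73 and 6.41 in VP303 (1.59, SE 0.14, limma adjusted p = 0.000447). For all 3 genes the NR350 and TU3401 arrays were near N2, between 4.23 and 5.15. The labels do not give the extent of the transgene, and whether these features read it was not tested.

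The nhx-2 gene itself was not called. Its log2 level was 5.44 ± 0.19 (SD, n = 2) in N2 and 5.66 ± 0.11 in VP303, a difference of 0.23 (SE 0.12, limma adjusted p = 0.643), and its highest levels, 6.18 and 6.55, were on the NR350 arrays. Among the 5 measured genes on each side of rol-6, T01B7.11 was the only one called, and among those around nhx-2 only B0495.11 and B0495.5 were. None of the 10 around rde-1 was called. On the far side of rol-6, idpb-4 was at 4.34 and 4.36 in N2 and at 4.32 and 4.35 in VP303. The direct neighbours of rde-1 gave differences of 0.12 for C27H6.8 and -0.21 for trpp-6, a gene for a subunit of the transport protein particle.

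**Figure D1:**
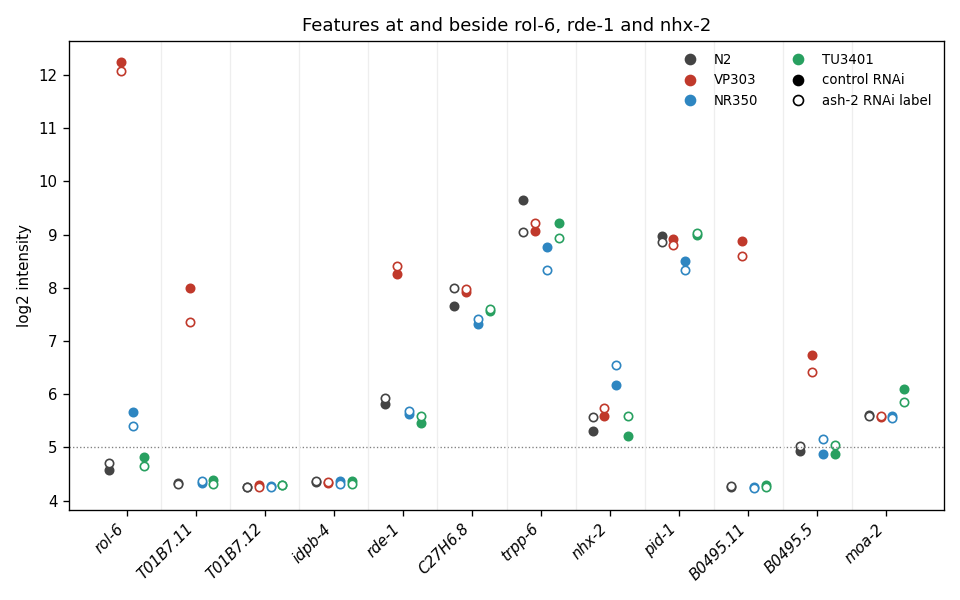
Log2 intensity (vertical axis) of rol-6, rde-1, nhx-2 and genes beside them on each of the 8 arrays, coloured by strain, with filled points for control RNAi and open points for arrays labelled ash-2. The VP303 points of rol-6 (12.25 and 12.08), T01B7.11, rde-1, B0495.11 and B0495.5 stand above those of the other 3 strains, while nhx-2 and the other neighbours overlap; the dotted line is log2 5.

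Across the genome, 96 features with 1 symbol were called higher in VP303 (0.376% of 25546) and 36 were called lower (0.141%), 132 in all (0.517%). At an unadjusted p under 0.05 there were 1163 higher and 1098 lower. All 132 differed with the same sign under control RNAi and between the arrays labelled ash-2, and in none did the VP303 and N2 arrays overlap. Both largely follow from the call, which rests on the mean of these same differences, so they are no separate evidence. Among all features with 1 symbol, the VP303 arrays lay above both N2 arrays in 19.6% and below both in 19.5%. At least 2-fold differences were seen for 41 of the higher and 13 of the lower genes, and at least 4-fold for 6 higher and 0 lower. Of the called genes, 88 higher and 31 lower ones code for proteins, 9 are noncoding RNA genes and 4 are pseudogenes. The median difference over all features with 1 symbol was near 0, and over the 8008 with a mean log2 above 5 it was -0.04.

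The call of a gene depended on single arrays. When each of the 4 VP303 and N2 arrays was left out in turn, between 22 and 32 features were called higher and between 6 and 24 lower. Without any 1 of these arrays 17 of the 132 genes kept their call: rol-6, rde-1, T01B7.11, B0495.11, B0495.5, the collagen genes col-81, col-129 and col-139, msp-78, Y59H11AM.1, gsto-1, cox-4, spp-15 and srpr-1.1 among the higher, and pud-4, F25E5.1 and Y51F10.4 among the lower. A further 45 kept it in some of the 4 fits, and 70 in none.

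**Figure D2:**
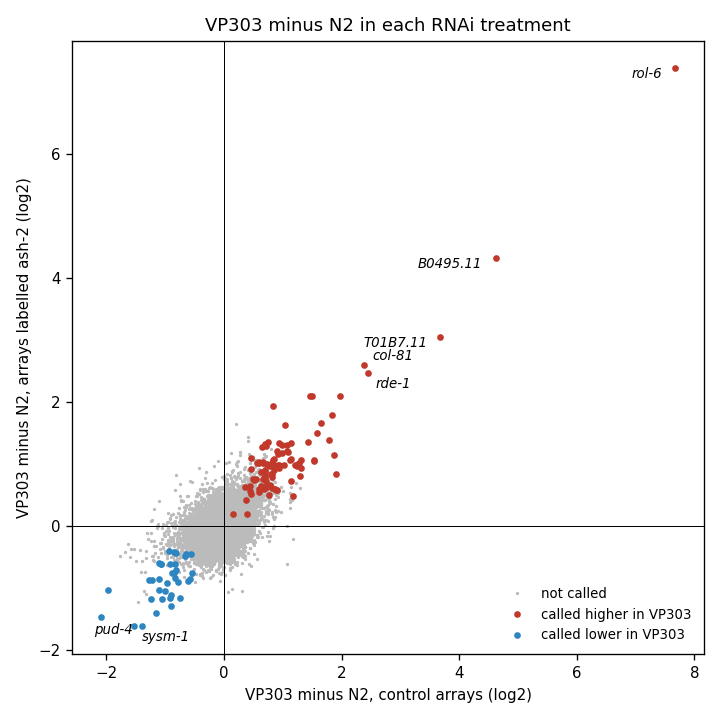
The VP303 minus N2 difference of each gene with 1 symbol on the control arrays (horizontal axis, log2) and on the arrays labelled ash-2 (vertical axis, log2), with called genes in red (higher in VP303) and blue (lower). The called genes have the same sign on both axes, and rol-6, B0495.11 and T01B7.11 lie farthest from 0.

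Which strain stood apart from the rest differed between the called genes. The VP303 arrays lay above all 6 others for 66 of the 96 higher genes (4.16% of all features with 1 symbol did so), and the N2 arrays lay below all 6 others for 19 (5.12%), with 4 genes in both counts and 15 in neither. Among the 36 lower genes, the N2 arrays lay above all 6 others for 22 (5.01%) and the VP303 arrays below all 6 others for 13 (4.03%), with 4 in both counts and 5 in neither. These counts describe the genes that the call picked and carry no test of their own.

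Several cuticle collagen genes were among those with the greatest differences. Of 20 measured collagen genes known for effects on body shape, 4 rose: rol-6, dpy-17 (2.14-fold), dpy-3 (a log2 difference of 0.92) and dpy-2 (0.64), the last 2 coding for collagens of the furrows that ring the cuticle. Both dpy-3 and dpy-2 lost the call whichever of the 4 VP303 and N2 arrays was left out. Of 153 other cuticle collagen genes measured, 7 rose and 1 fell; of all features with 1 symbol 0.376% were called higher and 0.141% lower. The median difference was 0.77 over the 10 body-shape genes with a mean log2 above 5, of which 9 were positive, and 0.34 over 52 of the others, of which 44 were positive, against -0.04 over all features at that level, of which 43.2% were positive. The body-shape values include rol-6, the strain marker, which passes that level through its VP303 arrays. They are therefore in part a reading of the marker, and the list was not summarised without it.

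In col-81, col-129, col-139, col-13 and col-146, N2 was the lowest of the 4 strains. The log2 level of col-81 was 6.87 and 6.82 in N2, 9.25 and 9.43 in VP303, 10.42 and 10.72 in NR350 and 8.44 and 8.98 in TU3401; the VP303 minus N2 difference was 2.49 (SE 0.16, limma adjusted p = 3.27e-05). That of col-129 was 6.19 and 6.11 in N2, 8.16 and 8.22 in VP303, 9.41 and 9.76 in NR350 and 7.67 and 7.88 in TU3401 (2.04, SE 0.16, limma adjusted p = 0.000138). In both genes N2 was lowest and VP303 lay between TU3401 and NR350. The gene col-139 was at 5.18 and 5.34 in N2 and 6.75 and 6.85 in VP303 (1.54), col-13 at 5.07 and 4.76 against 6.57 and 6.86 (1.80), and col-146 differed by 1.15. Against the mean of NR350 and TU3401, VP303 differed by -0.30 for col-81, -0.49 for col-129 and -0.33 for col-139, and none of these was called (limma adjusted p of 0.346, 0.0992 and 0.27), while N2 was lower by a called difference in each, of -2.79, -2.53 and -1.87. For col-13 both strains were lower by a called difference, VP303 by -0.86 (limma adjusted p = 0.0347) and N2 by -2.66. The comparisons share arrays and are given side by side.

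In another set of collagen and cuticle genes VP303 was the high strain. The level of dpy-17 was 8.68 and 8.86 in N2 and 9.81 and 9.93 in VP303, with 8.65 to 9.23 on the arrays of the other strains, so VP303 was highest and the groups did not overlap (limma adjusted p = 0.00337). The level of dpy-3 was 6.16 and 6.11 in N2 and 6.98 and 7.13 in VP303, with 5.82 to 6.24 elsewhere (limma adjusted p = 0.0149). The call of dpy-3 was lost whichever of the 4 VP303 and N2 arrays was left out. The collagen gene col-94 was at 8.28 and 9.18 in N2 and 10.15 and 10.34 in VP303 (1.51, SE 0.28, limma adjusted p = 0.0411); the 2 N2 arrays were far apart, and it kept the call in 1 of the 4 fits that leave out an array. The gene col-158 went the other way, at 6.12 and 5.86 in N2 and 4.89 and 4.99 in VP303 (-1.05, limma adjusted p = 0.00482), and its NR350 arrays, at 4.88 and 4.86, were as low as those of VP303.

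Other genes of the moult and the apical matrix moved in part. Of 36 measured moulting genes 3 rose: noah-2 (0.97) and noah-1 (0.87), which code for zona pellucida domain proteins of the matrix over the epidermis, and wrt-10 (0.63), a hedgehog-related gene. All 3 lost the call whichever of the 4 VP303 and N2 arrays was left out. Over all features with 1 symbol 0.376% were called higher and 0.141% lower, and 1.09% were called higher among those with a mean log2 above 5. The median over 26 of the list with a mean log2 above 5 was 0.14, and bli-4, a proprotein convertase gene that processes collagens, gave -0.20 (limma adjusted p = 0.84). Several collagens did not pass the test: sqt-3, a collagen needed for body shape, was at 10.07 and 10.33 in N2 and 10.81 and 10.54 in VP303 (0.47, limma adjusted p = 0.456), dpy-4 differed by -0.02, and sqt-1 lay at the low end of the scale in both strains. None of 15 osmotic stress genes, which are known to respond to damage of the cuticle furrows, was called (median -0.15 over 9), and none of 19 epidermal antimicrobial peptide genes was (median 0.10 over 5). At the shares given above, lists of this size would usually hold no call.

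Among sperm genes 2 rose, and in both N2 was the lowest strain. The major sperm protein gene msp-78 was at 5.45 ± 0.07 (SD, n = 2) in N2, 7.26 ± 0.04 in VP303, 9.55 and 9.71 in NR350 and 7.16 and 7.71 in TU3401 (VP303 minus N2 1.81, SE 0.17, limma adjusted p = 0.000466). The gene nspd-10, of a family of small sperm peptides, was at 4.64 and 4.96 in N2 and 6.17 and 6.03 in VP303 (2.45-fold, limma adjusted p = 0.0063). These were the 2 called among 60 measured sperm genes, of which 11 had a mean log2 above 5, with a median of 0.31; the share called higher was 0.376% over all features with 1 symbol and 1.09% over those above this level. Over the same 11 genes the median difference of N2 from the mean of NR350 and TU3401 was -0.94 and that of VP303 was -0.63. Y59H11AM.1 followed the same order of strains, at 5.17 ± 0.04 (SD, n = 2) in N2, 6.83 ± 0.03 in VP303, 8.91 and 9.11 in NR350 and 6.74 and 7.08 in TU3401. Hermaphrodites make their sperm around the last larval stage, and the labels give the same stage for all arrays.

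Among the other genes that rose most were 2 of detoxification enzymes. The gene gsto-1, of an omega-class glutathione transferase, was at 6.36 and 6.23 in N2 and 7.83 and 8.33 in VP303, above NR350 (7.36 and 7.09) and TU3401 (6.14 and 5.96), a difference of 1.79 (SE 0.19, limma adjusted p = 0.00142). The UDP-glucuronosyltransferase gene ugt-62 was at 7.22 and 6.61 in N2 and 8.05 and 8.55 in VP303 (1.38, SE 0.23, limma adjusted p = 0.0229), and NR350 was near VP303, at 8.03 and 8.38. In their lists 1 of 48 measured glutathione S-transferase genes, 2 of 67 UDP-glucuronosyltransferase genes and 0 of 74 cytochrome P450 genes were called higher, where 0.376% of all features with 1 symbol were. M163.16 on the X chromosome was at 6.90 and 6.72 in N2 and 8.32 and 8.08 in VP303 (1.39, limma adjusted p = 0.00807). Its call was lost whichever of the 4 VP303 and N2 arrays was left out.

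**Figure D3:**
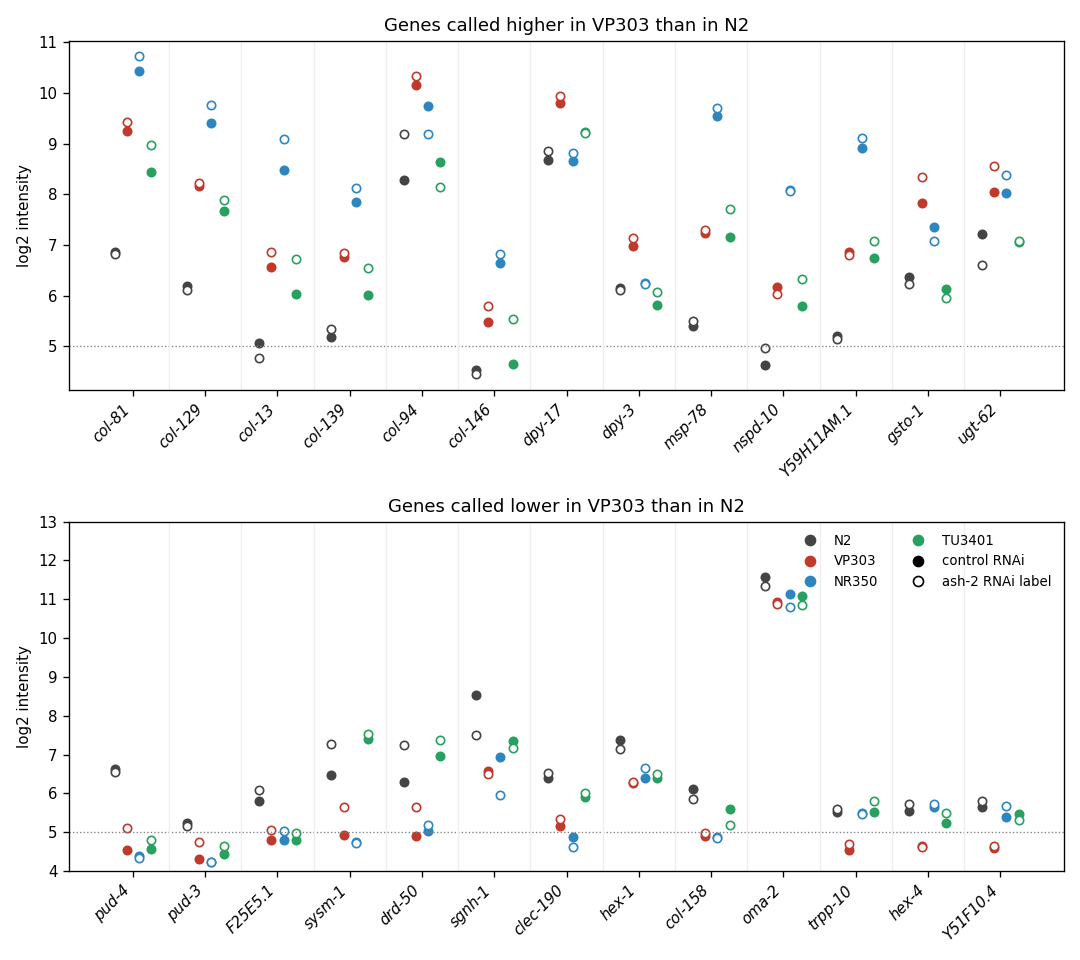
Log2 intensity (vertical axes) on each of the 8 arrays of 13 genes called higher in VP303 than in N2 (top) and 13 called lower (bottom), coloured by strain, with filled points for control RNAi and open points for arrays labelled ash-2; the dotted line is log2 5. For col-81, col-129, msp-78 and Y59H11AM.1 the N2 points lie below those of all other strains, for dpy-17, dpy-3 and gsto-1 the VP303 points lie above them, and for pud-4 and F25E5.1 the N2 points stand above the rest.

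The genes lower in VP303 were led by some that were high in N2 alone. The level of pud-4, a gene known for a protein that is more abundant in daf-2 insulin receptor mutants, was 6.60 ± 0.05 (SD, n = 2) in N2 and 4.82 ± 0.40 in VP303, a difference of -1.78 (SE 0.15, limma adjusted p = 0.000197). NR350 and TU3401 lay between 4.35 and 4.79, so N2 stood above the other 3 strains. Its relative and neighbour pud-3 was at 5.24 and 5.15 in N2 and 4.30 and 4.75 in VP303 (-0.67, limma adjusted p = 0.029), and F25E5.1, on the same chromosome V, was at 5.81 and 6.10 in N2 and between 4.80 and 5.06 on all 6 other arrays (VP303 minus N2 -1.02, limma adjusted p = 0.000806).

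The genes sysm-1 and drd-50 fell in VP303 and were low in NR350 too. The level of sysm-1, a secreted peptide gene used as a reporter of the PMK-1 p38 immune pathway, was 6.48 and 7.27 in N2, 4.94 and 5.66 in VP303, 4.75 and 4.74 in NR350 and 7.40 and 7.53 in TU3401 (VP303 minus N2 -1.58, SE 0.20, limma adjusted p = 0.00416). That of drd-50 was 6.31 and 7.24 in N2, 4.90 and 5.64 in VP303, 5.03 and 5.19 in NR350 and 6.96 and 7.37 in TU3401 (-1.50, limma adjusted p = 0.00317). Both genes thus split the strains into N2 and TU3401 above VP303 and NR350. The C-type lectin gene clec-190 was at 6.39 and 6.51 in N2 and 5.15 and 5.34 in VP303 (-1.21, limma adjusted p = 0.00212), and the hexosaminidase gene hex-1 at 7.37 and 7.14 against 6.27 and 6.29 (-0.98, limma adjusted p = 0.0184). The gene sgnh-1, of the SGNH hydrolase family, was at 8.55 and 7.51 in N2 and 6.57 and 6.49 in VP303 (-1.50, limma adjusted p = 0.0167), with the widest spread within N2 among the genes of this paragraph.

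In 1 group of neighbouring genes VP303 alone was low. On chromosome I, trpp-10, which encodes a subunit of the transport protein particle, was at 5.52 and 5.59 in N2 and 4.55 and 4.69 in VP303 (-0.94), hex-4, a second hexosaminidase gene, at 5.54 and 5.72 against 4.65 and 4.62, and Y51F10.4 at 5.66 and 5.81 against 4.61 and 4.64 (-1.11). The limma adjusted p was 0.0039, 0.00264 and 0.00193. All 3 were at the low end of the scale in VP303 and at 5.24 or above on the NR350 and TU3401 arrays, and they lie within a few measured genes of each other in the RefSeq order.

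The called genes were not spread evenly over the chromosomes. Chromosome I held 34 of the 96 higher features, which is 1.04% of its 3265 features with 1 symbol, against 0.458% on II, 0.255% on III, 0.256% on IV, 0.263% on V and 0.183% on X. The share of features called lower was between 0.0813% on X and 0.184% on I. Of the 12 mitochondrial features 0 were called, and the median difference of the 11 with a mean log2 above 5 was 0.25.

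Most of the higher genes on chromosome I came from 1 stretch. Genes with a mean log2 above 5 were put in RefSeq order and cut into windows of 40, a step taken after the data had been seen, so its values are a description. Outside chromosome I the median VP303 minus N2 difference of 163 windows lay between -0.17 and 0.15. On chromosome I, 35 of 38 windows lay between -0.15 and 0.11, and 3 adjacent windows, from unc-101 to taf-1, had medians of 0.44, 0.48 and 0.45. The stretch held 120 such genes, of which 109 differed upward (90.8%, against 43.1% of the 7967 genes in all windows), 22 were called higher (18.3%) and 0 lower; over all features at this level 1.09% were called higher and 0.387% lower. The VP303 arrays lay above both N2 arrays for 100 of the 120; over all features with 1 symbol at this level they lay above in 19.7% and below in 28.4%. The median over the stretch was 0.46, with quartiles at 0.30 and 0.72, a 1.37-fold difference.

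The values of the stretch are given by treatment and against the other strains. Its median was 0.47 on the control arrays and 0.49 on the arrays labelled ash-2. VP303 minus TU3401 gave a median of 0.49 and VP303 minus NR350 one of 0.21, and both share the VP303 arrays with the comparison against N2. By window, VP303 minus NR350 was 0.23, 0.50 and -0.12, and NR350 itself was above N2 by 0.67 in the last of the 3 windows and by 0.85 in the next one, where VP303 minus N2 was -0.01. TU3401 minus N2 was between -0.06 and -0.02 in the 3 windows. The cause was not tested.

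Examples of the called genes of the stretch follow, and roles were not compared over all 22. The cytochrome c oxidase subunit gene cox-4 was at 9.59 and 9.94 in N2 and 10.83 and 10.91 in VP303 (1.11, SE 0.12, limma adjusted p = 0.00193), and the ribosomal protein gene rpl-31 at 11.06 and 11.22 against 11.65 and 11.82 (0.59, limma adjusted p = 0.0143). The acyl-CoA oxidase gene acox-1.3, of peroxisomal fatty acid oxidation, was at 5.98 and 5.98 in N2 and 6.70 and 7.27 in VP303 (1.00, limma adjusted p = 0.0295). The glucose-6-phosphate isomerase gene gpi-1 was at 8.24 and 8.11 in N2 and 8.97 and 9.11 in VP303 (0.87, limma adjusted p = 0.0283), and snr-2, of a splicing ribonucleoprotein, at 9.21 and 9.35 against 10.03 and 9.96 (0.72, limma adjusted p = 0.0402). The largest difference was that of dpsm-1, at 5.75 and 6.41 in N2 and 7.28 and 7.46 in VP303 (1.29, limma adjusted p = 0.00514), and the smallest that of rpr-1, the RNA of ribonuclease P, at 12.79 and 12.62 against 13.17 and 13.04 (0.40, limma adjusted p = 0.0079). For all 22 genes the VP303 arrays lay above both TU3401 arrays, and for 16 of them above both NR350 arrays.

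Called genes lay side by side elsewhere too. Joining called genes at most 6 measured genes apart, whatever their direction, gave 12 runs with 36 genes, of which 7 runs with 25 genes were on chromosome I. Within each run all genes differed in the same direction. Outside the stretch just described, spp-15, a saposin-like gene, cebp-2, a transcription factor of the C/EBP family, and C48E7.1 formed a run on chromosome I with differences of 1.09, 1.05 and 0.97. On chromosome IV, islo-1 (0.68), pmk-3 (0.95) and pmk-2 (1.13) were neighbours, the last 2 coding for p38 mitogen-activated protein kinases; pmk-2 was at 6.20 and 6.44 in N2, 7.51 and 7.39 in VP303, 7.88 and 7.55 in NR350 and 6.29 and 5.93 in TU3401. The noncoding genes srpr-1.1 (2.28-fold) and srpr-1.2 (2.14-fold) on chromosome III made another run. The genes cebp-2, islo-1 and pmk-3 each lost the call whichever of the 4 VP303 and N2 arrays was left out. Neighbouring features can share transcripts or operons, so genes of a run are not independent.

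The genes of the RNAi pathway other than rde-1 were not called. Of 32 measured exogenous RNAi genes, rde-1 rose and 0 fell, with a median of -0.05 over the 31 with a mean log2 above 5. Over all features with 1 symbol 0.376% were called higher and 0.141% lower. The double-stranded RNA channel gene sid-1 was the lowest of them, at 7.48 and 7.65 in N2 and 7.08 and 6.88 in VP303 (-0.59, SE 0.15, limma adjusted p = 0.169). Its arrays did not overlap between the strains. Of 22 Argonaute genes only rde-1 was called, and ergo-1, an Argonaute of endogenous small RNAs, gave -0.26 (limma adjusted p = 0.72). Of 19 genes of histone H3 lysine 4 methylation 0 were called; the largest difference was 0.57 for the demethylase gene spr-5 (limma adjusted p = 0.264) and the lowest -0.50 for set-17, a methyltransferase gene (limma adjusted p = 0.197).

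Genes of the intestine, in which the labels place the RNAi of VP303, were not called. None of 33 measured members passed the test, with a median of 0.21 over 27 with a mean log2 above 5, of which 22 were positive. Over all features with 1 symbol 0.376% were called higher and 0.141% lower, so a list of this size would usually hold no call. Of those with a mean log2 above 5, 43.2% were positive. The acid phosphatase gene pho-1 gave 0.63 (limma adjusted p = 0.238) and elt-2, the GATA factor of the intestine, was at 6.01 and 6.21 in N2 and 6.64 and 6.67 in VP303 (0.55, limma adjusted p = 0.143). The 5 measured vitellogenin genes, which the adult intestine expresses for yolk, all differed downward with none called, from -0.13 for vit-2 to -0.54 for vit-4 (limma adjusted p of 0.796 and 0.135). For the intestine list the median difference of N2 from the mean of NR350 and TU3401 was -0.31 and that of VP303 was -0.08.

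Germ line and cell division lists had medians below 0, with 1 called gene. Of 50 germ line genes, oma-2, which codes for a zinc finger protein of oocyte maturation, fell, from 11.58 and 11.34 in N2 to 10.92 and 10.87 in VP303 (-0.57, SE 0.10, limma adjusted p = 0.0237). It lost the call whichever of the 4 arrays was left out. Against the mean of NR350 and TU3401, oma-2 was higher in N2 by 0.49 (limma adjusted p = 0.00978). In VP303 it differed from that mean by -0.08 (limma adjusted p = 0.74). The median of the list was -0.16, with 40 of 50 members negative, and that of 40 genes of DNA replication and cell division was -0.15, with 37 negative and 0 called. The germ line medians were -0.04 on the control arrays and -0.23 on the arrays labelled ash-2, and the replication medians were -0.09 and -0.22. From the mean of NR350 and TU3401, N2 differed by a median of 0.13 over the germ line list and 0.17 over the replication list. VP303 differed from it by 0.01 and 0.04, and these comparisons share arrays. Of all features with 1 symbol and a mean log2 above 5, 4551 of 8008 were negative and 0.387% were called lower. At that share lists of this size would usually hold no call.

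Most genes of protein synthesis and respiration differed upward, and the 1 called gene of each list came from the stretch on chromosome I. Of 65 cytosolic ribosomal protein genes, rpl-31 rose, and the median over 63 was 0.16, with 56 positive. Of 50 respiratory chain genes, cox-4 rose, and the median over 46 was 0.21, with 39 positive. Of all features with 1 symbol and a mean log2 above 5, 43.2% were positive. The medians were 0.21 and 0.17 in the 2 treatments for the ribosomal list and 0.22 and 0.20 for the respiratory one. From the mean of NR350 and TU3401, N2 differed by medians of -0.14 and -0.13 over these lists, and VP303 by 0.04 and 0.05. For cox-4 and rpl-31, N2 was lower than that mean by called differences of -0.83 and -0.42. VP303 differed from it by 0.28 and 0.17, which were not called (limma adjusted p of 0.251 and 0.339). Of 79 genes of fatty acid oxidation and lipases, acox-1.2 (0.63), acox-1.3 and ech-7 (1.04), a gene of the enoyl-CoA hydratase family, rose, and acdh-2, an acyl-CoA dehydrogenase gene, fell (-0.83, limma adjusted p = 0.0225); over all features with 1 symbol 0.376% were called higher and 0.141% lower.

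The lists of defence and stress genes below held between 0 and 2 calls each. Of 37 immune effector genes sysm-1 fell and none rose, with a median of -0.23 over 19, of which 15 were negative. Of all features with 1 symbol and a mean log2 above 5, 4551 of 8008 were negative. Of 247 C-type lectin genes clec-190 and clec-218 (-0.72) fell, and 2 of 340 F-box genes fell, where 0.141% of all features with 1 symbol were called lower. None of 24 heat shock genes, 15 genes of the mitochondrial and 25 of the endoplasmic reticulum unfolded protein response, and 16 lysozyme genes was called. With 0.376% of all features with 1 symbol called higher, lists this short would usually hold no call. The metallothionein gene mtl-1 rose by 0.51 (limma adjusted p = 0.0401), and its call was lost whichever of the 4 VP303 and N2 arrays was left out. None of 39 muscle, 45 neuron, 109 neuropeptide and 276 nuclear hormone receptor genes was called; the largest difference in the neuropeptide list was 0.80 for nlp-20 (limma adjusted p = 0.0547) and in the receptor list 0.79 for nhr-114 (limma adjusted p = 0.0886).

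**Figure D4:**
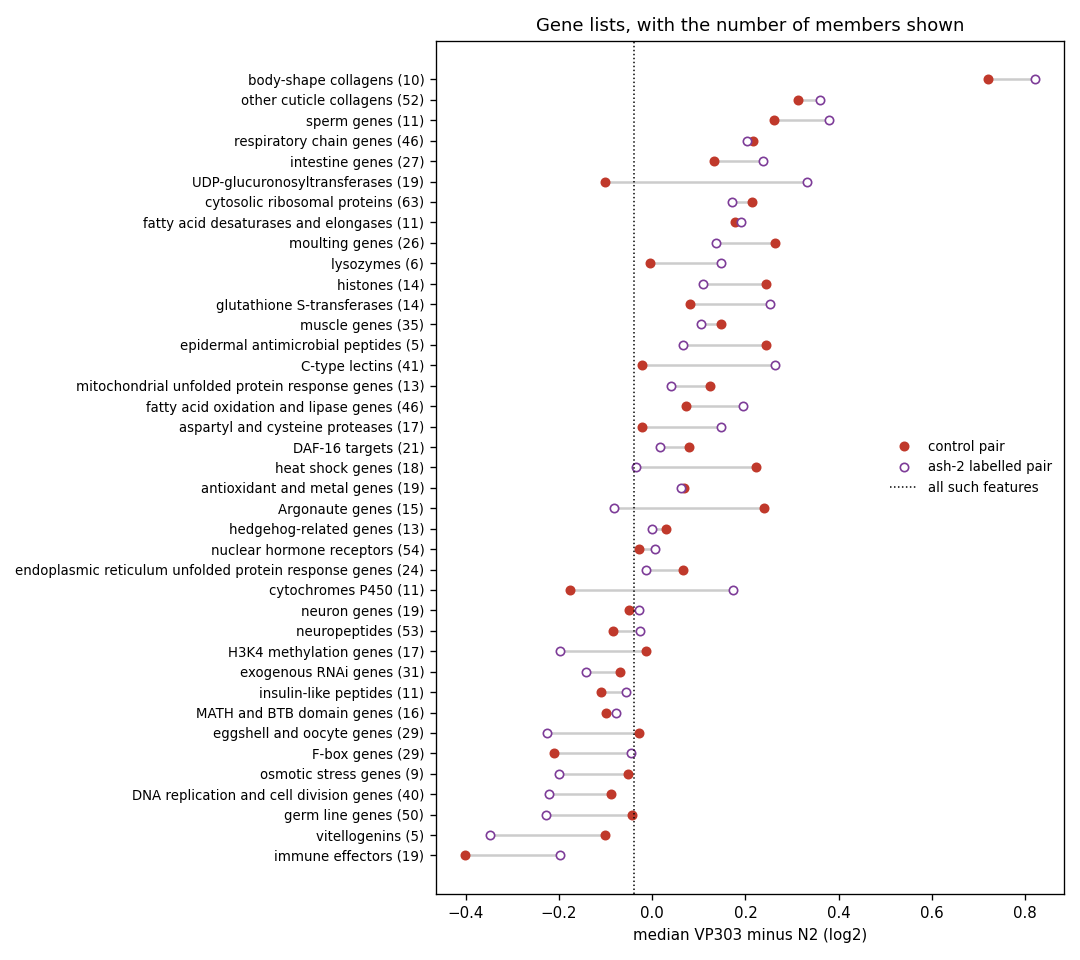
Median VP303 minus N2 difference (horizontal axis, log2) of each gene list that has at least 5 members with a mean log2 above 5, over those members, whose number is in parentheses, for the control pair of arrays (filled) and the pair labelled ash-2 (open). Body-shape collagens, a list that includes the strain marker rol-6, stand highest at 0.72 and 0.82. Immune effectors are the lowest of the lists drawn on the control arrays. The dotted line is the median of all features with 1 symbol and a mean log2 above 5, -0.04.

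No difference between the strains was found to depend on the RNAi treatment. In a fit with a term for the difference between VP303 and N2 in their response to the treatment, limma called 0 of 27792 features (smallest adjusted p 0.159), and 1010 had an unadjusted p under 0.05. That fit has 1 residual degree of freedom. It gives NR350 and TU3401 a shared response to the treatment, so its spread is read from how the responses of those strains differ.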

How the data were processed

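Total RNA from worms was labelled and hybridised to C. elegans Gene 1.0 ST arrays, per the labels and the series' design text, which names Affymetrix GeneChip Command Console 2.0 for the images and GeneSpring GX 11.0.2. The submitters' processing notes name RMA; for its version and settings no source was at hand. The deposited values are linear intensity, from 18.01 to 12880, and the authors' normalization was kept; log2 of the deposited intensity was computed here. The depth of an array has no count, and the number of arrays limits the precision.

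Features were named through the platform annotation: 25546 have 1 symbol, 646 several and 1600 none. RefSeq, assembly WBcel235, matched 25495 and was used for gene type and gene order only; its build was not set against that of the arrays, so no coordinates are given. Strains were compared with limma 3.58.1 in R 4.3.3 (lmFit, then eBayes with an intensity trend) on all 8 arrays, with strain and RNAi treatment as terms, and p-values were adjusted by Benjamini-Hochberg over 27792 features. The fit was tested on simulated data.

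The strains, lists and tests were chosen with earlier results of these data known. Named by rule were rol-6, rde-1 and nhx-2 with 5 measured genes on each side, the 15 called genes with the largest difference in each direction that had the same sign in both treatments and a mean log2 above 5 in the higher strain, the extreme members of each of 41 lists, and called members where a list has up to 6. Genes of the chromosome I stretch and of runs, and those picked as examples in the text beyond the rule, such as sqt-3, sqt-1 and col-146, were chosen after their values were seen. Alternatives changed the arrays fitted, the treatment term, the normalization, the features tested, the variance model and the offset. The treatment term matches the strains within each treatment; replicate numbers pair nothing further, since each combination has 1 array.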

Additional observations from a re-analysis of the deposited data

Results flagged for a closer look

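Features that the comparison of named genes left out also differed between the strains. Of the features with no symbol or with several, limma called 31 higher in VP303 and 15 lower. Those with several symbols gave 24 higher and 13 lower of 646, and those with none gave 7 and 2 of 1600. The largest difference upward was 2.58 on the log2 scale, and 13 of these features were near copies of another feature. The genes behind them were not named here.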

How the results depend on the processing

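Against 96 features called higher and 36 lower, the counts were 23 and 6 with eBayes without a trend, 61 and 21 without the treatment term, 162 and 67 when only features with a mean log2 above 5 were tested, and 181 and 91 with the 4 VP303 and N2 arrays alone (1 residual degree of freedom). Leaving out 1 VP303 or N2 array gave 22 to 32 higher and 6 to 24 lower, where the lone array of a strain is assumed to vary like the others. Without the trend, 21 of the 96 and 1 of the 36 were still called. Centring, quantile normalization, a robust prior, subtracting 16 and leaving out NR350 or TU3401 gave 89 to 103 higher and 29 to 45 lower. Testing only features with 1 symbol gave 134 and 48. No named gene that was called reversed its sign under any of 15 alternatives, while some uncalled genes with differences near 0 did, and 11 of the 77 called named genes kept the call in each. Among them are rol-6, rde-1, T01B7.11, B0495.11, col-81, col-129 and F25E5.1. The highest window median, 0.48, was 0.59 with windows of 20 genes, 0.46 with 80, 0.37 with genes of any level, 0.58 after subtracting 16, and 0.51 to 0.54 without 1 array; these alternatives were chosen after seeing the data, and in each the window lay on chromosome I. The cause of these changes was not tested. The treatment term already matches VP303 and N2 within each treatment; a fit with the replicate number as a block was not possible, because all arrays have the number 1. Levels under log2 5 limit how low a difference can be read.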
